A study of Homo sapiens with 6 samples.

Results

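After 6 h of AI-10-49, 618 of the 66350 H3K27ac regions listed in ME-1 cells each ran across at least 3 regions that were listed separately in DMSO. They are called merged regions here, and they made up 0.931% of the AI-10-49 list. The members were chosen by counting, for every AI-10-49 region, the DMSO regions it overlapped by at least 1 bp and keeping those that overlapped 3 or more. The 3 or more DMSO regions are called DMSO pieces, and the intervals between neighbouring pieces, which were outside any DMSO region and inside the AI-10-49 region, are called filled gaps. Because both H3K27ac lists chose the members, their widths, gaps and acetylation levels are descriptions. The RUNX1 lists played no part in the choice.

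The ME-1 line, grown from a human leukemia, carries the inversion inv(16), which fuses CBFB to MYH11. One pair of libraries came from cells given AI-10-49 at 1 µM for 6 h, precipitated with an antibody against H3K27ac or against RUNX1, and the other pair came from cells given DMSO for the same time. All cells carried the inversion. The series held 6 libraries, 4 with a peak list and 2 of input DNA, with 1 library for each antibody and condition. No difference between conditions could be set against a replicate spread, so no p-value is given, and all intervals are exact 95% intervals that cover counting error only.

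H3K27ac, the acetylation of lysine 27 on histone H3, marks active promoters and enhancers, and the nucleosomes that carry it flank the open DNA where transcription factors bind. A narrow gap in an acetylated stretch can therefore be the place of a bound factor. RUNX1 is a transcription factor of blood cell development that binds DNA with its partner CBFβ. The fusion protein CBFβ-SMMHC of inv(16) leukemia also binds RUNX1, and AI-10-49 is a small molecule made to block that contact.

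The merged regions were spread over every chromosome except Y, where 0 of 54 AI-10-49 regions were merged, which allows a share of up to 5.56%. By chromosome the share ran between 0.307% on X (5 of 1629, 0.0997 to 0.715) and 1.54% on chromosome 21 (15 of 976, 0.863 to 2.52). They fell in 317 of 795 cytobands. Among the 618, 503 overlapped exactly 3 DMSO regions, 90 overlapped 4, 18 overlapped 5, 4 overlapped 6 and 3 overlapped 7. Just outside the threshold stood 4573 AI-10-49 regions over exactly 2 DMSO regions. Their median width was 1395 bp, against 2650 bp for the regions over exactly 3, and their median summit level was 1.14 fragments per M (mega) reads, against 1.65. A summit level is the number of sequenced fragments over the highest point of a region divided by the library's reads, recovered from the authors' peak values.

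Joining was the rarer direction. The mirror count, DMSO regions that each overlapped 3 or more AI-10-49 regions, gave 1504 of 67087, or 2.24% of the DMSO list. There were thus 0.411 merged regions for each DMSO region that was listed as 3 or more in AI-10-49. The ratio stayed between 0.396 and 0.411 under each alternative tried for it. The AI-10-49 H3K27ac library held 37.0 M reads and the DMSO library 35.7 M, but the smaller of ChIP and input library, which limits a peak call, was 27.6 M reads for AI-10-49 and 34.0 M for DMSO. The part of this difference in the counts was not tested.

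The merged regions were wide. Their median width was 2996 bp (quartiles 1822 and 4728 bp, range 541 to 24162 bp), against 522 bp for all AI-10-49 regions, a difference that the rule itself favours. As a set they were not wider than the span of their DMSO pieces. That span counts end pieces at full length, also where they ran past the member. The DMSO pieces of a member, measured from the start of the first to the end of the last, spanned a median of 3222 bp, and the AI-10-49 region was 0.984 times as wide as that span (quartiles 0.848 and 1.07). It was wider than the DMSO span in 274 members and narrower in 344. Only 63 members were more than 1.2 times as wide, and 39 were less than 0.5 times as wide. In total the members covered 2.31 Mb. Their DMSO pieces covered 2.30 Mb at full length, of which 1.93 Mb lay inside the members.

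**Figure D1:**
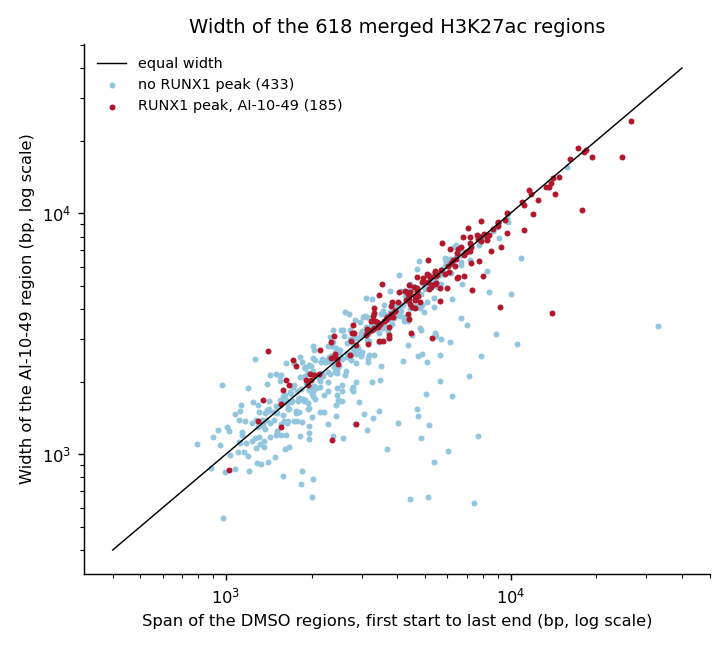
Width of each of the 618 merged AI-10-49 H3K27ac regions (vertical axis, bp, log scale) against the span of its DMSO regions (horizontal axis, bp, log scale). Points are regions, red where a RUNX1 peak of AI-10-49 overlapped (185) and blue where none did (433), and the line marks equal width. Most points lie close to the line, with a tail of narrow regions below it, and red points are more frequent to the right.

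Most of the sequence in a merged region was already acetylated in DMSO. Of the 2.31 Mb, 1.93 Mb (83.6%) lay in DMSO pieces, 0.252 Mb (10.9%) in filled gaps and 0.126 Mb (5.45%) in outer ends beyond the first and last piece. Filled gaps made up a median of 11.7% of a member's width (quartiles 6.69 and 19.4%, highest 80.6%). They took more than 25% of the width in 99 members and more than 50% in 7. All DMSO pieces lay whole inside the AI-10-49 region in 163 members. In 209 members an end piece also overlapped another AI-10-49 region, so the DMSO piece was split where the member ended.

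Within a member the DMSO pieces differed in width and level. The piece with most fragments is set apart here by its level, so the other pieces are weaker by that choice. This strongest piece had a median width of 1698 bp and a median summit level of 1.92 fragments per M reads. The other 1386 pieces had a median width of 380 bp and a median level of 0.616, which is 22 fragments. Over all 2004 pieces, 48.7% were narrower than 500 bp, against 46.6% of all 67087 DMSO regions. The share was 64.1% in the other pieces alone. The strongest piece stood at an end of the row in 394 members and between other pieces in 224. Its level was more than 3 times that of the second piece in 210 members.

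The AI-10-49 summit mostly lay within the strongest DMSO piece. It fell there in 471 members (76.2%), in another piece in 120, in a filled gap in 25 and in an outer end in 2. Strongest pieces made up 52.1% of the members' length. The distance between the AI-10-49 and DMSO summits was not measured. The summit of the strongest piece was outside the AI-10-49 region in 66 members.

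Summit levels of the merged regions were close to those of their strongest DMSO piece, while those of other regions were lower in AI-10-49. The merged and the mirror sets were chosen by both H3K27ac lists. That choice itself favours higher ratios in the first and lower ones in the second, so these values are descriptions. The ratio of the AI-10-49 summit to that of the strongest piece had a median of 0.934 (quartiles 0.738 and 1.21) in merged regions. It was 0.839 in the 4573 regions over exactly 2 DMSO regions and 0.809 in the 29671 regions that paired 1 to 1 with a DMSO region. In the mirror set, where 1 DMSO region was listed as 3 or more in AI-10-49, the ratio of the highest AI-10-49 piece to the DMSO region was 0.610. Between 1 and 2 kb of width the median ratio was 1.08 in merged regions and 0.727 in 1 to 1 regions, and between 5 and 8 kb it was 0.803 and 0.710. Fragment length, taken here as the narrowest width in each list, was 210 bp in AI-10-49 and 192 bp in DMSO, a ratio of 1.09. What this length difference contributed to the summit ratios was not tested. The summit ratio was above 1.09 in 197 members (31.9%).

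**Figure D2:**
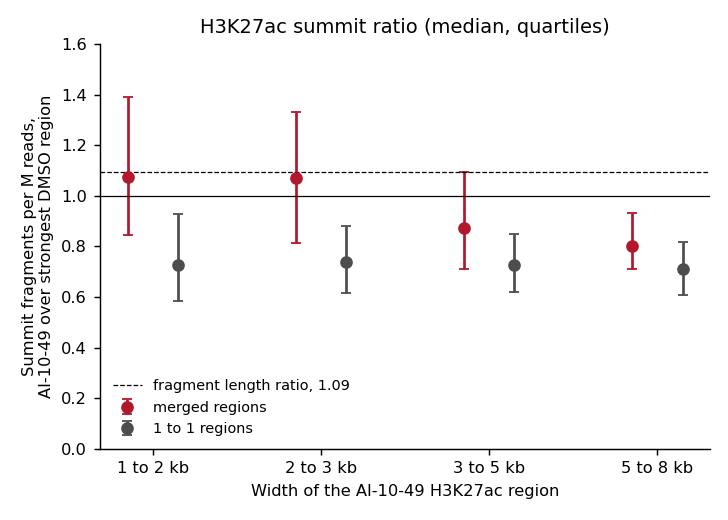
Ratio of H3K27ac summit levels, AI-10-49 over DMSO (vertical axis) in 4 classes of AI-10-49 region width (horizontal axis), for merged regions (red, against their strongest DMSO piece) and 1 to 1 regions (grey). Points are medians and bars are quartiles. The merged regions were chosen by both H3K27ac lists, so their ratios are a description. Medians of merged regions fall between 0.803 and 1.08, above those of 1 to 1 regions in each class, which lie between 0.710 and 0.738. The dashed line is the ratio of fragment lengths, taken as the narrowest listed widths, 1.09.

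Filled gaps were short. The 1386 gaps had a median width of 124 bp (quartiles 72 and 219 bp, range 45 to 2517 bp), and 45 bp was the narrowest gap in either list. Of them, 531 were under 100 bp, 788 were under 150 bp and 1312 were under 500 bp. Only 4 reached 1000 bp. The fragment length taken for AI-10-49 was 18 bp longer than that for DMSO. What this difference contributed to the filling was not tested.

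Short gaps were filled more often than long ones. Of the 32684 gaps of up to 2517 bp between neighbouring DMSO regions, 5958 were spanned by a single AI-10-49 region, or 18.2%, and 1386 of these lay in merged regions. Among gaps whose neighbours on both sides overlapped an AI-10-49 region, 61.6% were filled under 100 bp (each class excludes its upper bound), 40.2% between 100 and 250 bp, 21.7% between 250 and 500 bp and 8.13% between 500 and 1000 bp. In the mirror direction, where a DMSO region spans a gap of the AI-10-49 list, the shares in the same classes were 79.3%, 57.9%, 33.1% and 16.0%.

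The members over the most DMSO regions show what was joined. Positions are 1-based in hg19. Genes named beside a band are background and do not place a region at the gene, since no annotation of that build was used. In 17q11.2, chr17:29633937-29649501 was 15565 bp wide in AI-10-49 and ran across 7 DMSO pieces, with 6 filled gaps of 61 to 653 bp that added up to 1316 bp. Its summit held 131 fragments (3.54 per M reads) in AI-10-49, and the 7 pieces held 13, 149, 33, 104, 22, 18 and 117 fragments in DMSO. The region thus joined 3 strong pieces with weak ones between them, and the weakest piece, of 13 fragments, lay at one end. It held no RUNX1 summit in either condition. A second region over 7 pieces lay in 5q23.2 (chr5:126141922-126151514), with 100 fragments in AI-10-49 and 15 to 64 in its DMSO pieces. The third, in 18p11.22 (chr18:9145141-9149119), was 3979 bp wide and had 43 fragments in AI-10-49, against 13 to 42 in DMSO.

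A member with a higher summit than any of its pieces lay in 5q31.2, the band of the immediate early gene EGR1. This region, chr5:137333177-137337707, joined 6 pieces of 192 to 994 bp across 1810 bp of gaps. Its summit held 83 fragments in AI-10-49 (2.24 per M reads), and its pieces had 23, 16, 31, 13, 13 and 14 fragments in DMSO, so the ratio to the strongest was 2.58. In 15q26.1, the 6 pieces of chr15:90363387-90368241 had 21 to 94 fragments in DMSO, and the joined region had 105 in AI-10-49. The remaining regions over 6 pieces lay in 3p13 and 10p14, with ratios of 1.51 and 0.488. In 10p14 the summit of the strongest piece, 2.55 fragments per M reads, lay outside the AI-10-49 region. The AI-10-49 summit there, 1.24, lay in a filled gap and was above the second strongest piece, 0.813. None of the regions over 6 or 7 DMSO pieces held a RUNX1 summit. The 10 named for the most pieces take the 3 with most filled sequence of the 18 over 5 pieces. Among these 10, only a 7117 bp region in 10q22.3 held one, outside its gaps. Over all 618 members, 444 held no AI-10-49 RUNX1 summit. Of the 25 members over 5 or more pieces, 10 overlapped an AI-10-49 RUNX1 peak (40.0%).

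The widest filled gap, 2517 bp, lay in 11q13.1 (chr11:65542699-65548392). There an AI-10-49 region of 5694 bp with 181 summit fragments joined 2 weak pieces (47 and 24 fragments) to a strong one (245 fragments), and its only RUNX1 summit fell in the strong piece. The 10 members with the most filled sequence had 1316 to 2597 bp of it, 4 of them held an AI-10-49 RUNX1 summit, and none held one in a gap. Among all 618 members, 444 held no such summit and 22 (3.56%) held one in a filled gap. The widest member, 24162 bp in 6q23.3 (chr6:135499384-135523545), added 3 weak pieces of 13 to 33 fragments to a DMSO region with 346 fragments, and had 273 in AI-10-49. This is the band of MYB, a regulator of immature blood cells. The narrowest member, chr3:58326862-58327402 in 3p14.3, was 541 bp wide, with 30 fragments in AI-10-49 and 16 to 25 in its 3 DMSO pieces.

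**Figure D3:**
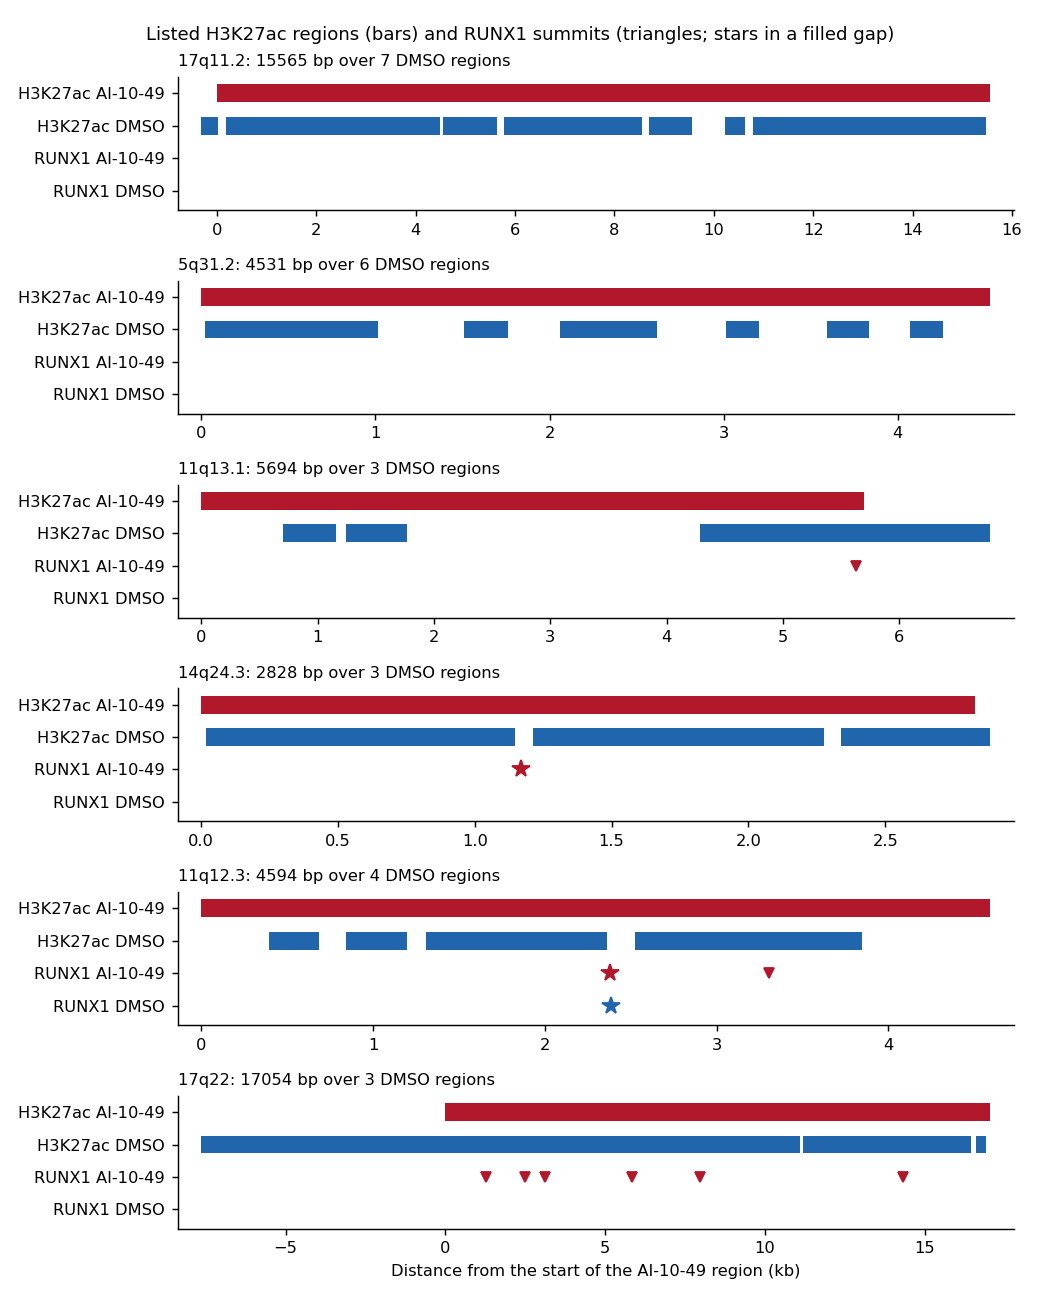
Listed H3K27ac regions and RUNX1 summits in 6 merged regions, drawn to scale by distance from the start of the AI-10-49 region (kb). Bars are H3K27ac regions (AI-10-49 red, DMSO blue), triangles are RUNX1 summits and stars are RUNX1 summits in a filled gap. The AI-10-49 bar is unbroken across 3 to 7 DMSO bars, RUNX1 summits are missing from the regions in 17q11.2 and 5q31.2, and the 6 RUNX1 summits in 17q22 lie outside the gaps.

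RUNX1 peaks of AI-10-49 overlapped 185 of the 618 merged regions, or 29.9% (26.3 to 33.7). The share over all AI-10-49 H3K27ac regions was 13.7%. RUNX1 peaks of DMSO overlapped 27 members, or 4.37% (2.90 to 6.29), where the share over all AI-10-49 regions was 1.95%. The AI-10-49 RUNX1 list held 10319 peaks and the DMSO RUNX1 list 1701, so counts from the 2 lists are not on an equal footing. The share with an AI-10-49 RUNX1 peak was 22.6% (21.4 to 23.9) in regions over exactly 2 DMSO regions and 16.4% (16.1 to 16.7) in regions over exactly 1. Within the merged set it was 28.6% (144 of 503) over 3 pieces, 34.4% (31 of 90) over 4 and 40.0% (10 of 25) over 5 or more, with overlapping intervals.

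Width turned this order round, since wider regions hold a peak more often. Among regions of 1 to 2 kb, 5.59% of the merged ones (9 of 161, 2.59 to 10.3) held an AI-10-49 RUNX1 peak, 18.4% of those over exactly 2 and 25.3% (24.4 to 26.2) of those over exactly 1. Between 2 and 3 kb the shares were 17.3%, 32.4% and 42.6%, and between 3 and 5 kb they were 38.8%, 47.8% and 57.0%. Intervals of merged regions and regions over exactly 1 did not overlap in any of these classes, nor between 5 and 8 kb (54.1% and 73.9%). They overlapped under 1 kb and from 8 kb on. If regions over exactly 1 had the widths of the merged regions, 48.7% of them would hold a peak, against 29.9% of the merged regions.

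**Figure D4:**
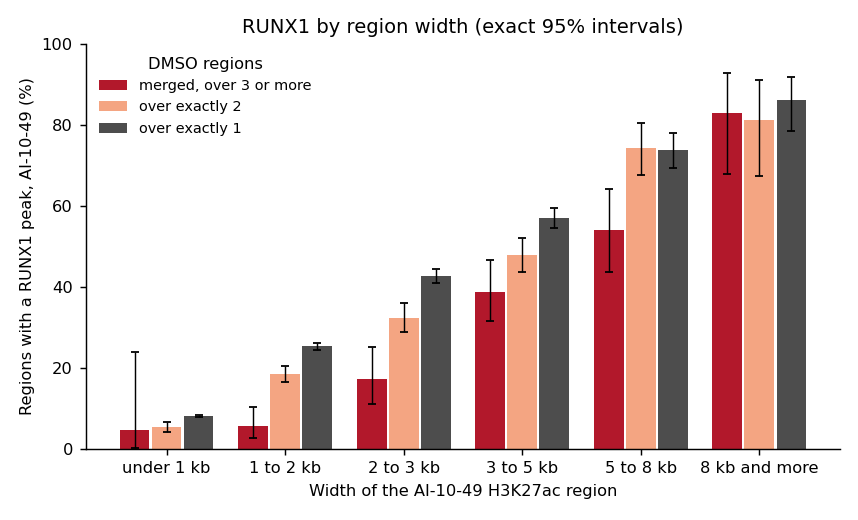
Share of AI-10-49 H3K27ac regions that overlap a RUNX1 peak of AI-10-49 (vertical axis, %) by region width (horizontal axis), for merged regions (red), regions over exactly 2 DMSO regions (light) and regions over exactly 1 (grey). Bars are shares and lines are exact 95% intervals. The merged share is lowest of the 3 in each class between 1 and 8 kb, for example 5.59% against 25.3% over exactly 1 at 1 to 2 kb.

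The acetylation level moved with this difference. At equal summit level the shares were nearly the same, 29.9% of merged regions and 29.8% of regions over exactly 1 given the merged regions' summit levels. At equal width and summit level together, merged regions had 30.0% and regions over exactly 1 had 39.4%. These classes by summit level were chosen after the values were seen. Counted by length, the merged regions held 95.8 RUNX1 summits per Mb (83.6 to 109) in AI-10-49 and 11.7 (7.71 to 17.0) in DMSO. In AI-10-49 this was below the 113 per Mb (111 to 116) of all AI-10-49 H3K27ac regions and the 123 (120 to 126) of regions over exactly 1. In DMSO those sets had 16.2 (15.2 to 17.2) and 18.0 (16.8 to 19.2), and their intervals overlapped that of the merged regions.

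Members with a RUNX1 peak were the stronger and wider ones. The 185 with an AI-10-49 RUNX1 peak had a median width of 4852 bp and a median H3K27ac level of 3.92 fragments per M reads in AI-10-49, against 2423 bp and 1.27 in the 433 without. Their H3K27ac ratio to the strongest DMSO piece had a median of 0.824, against 0.995 in those without. Over all merged regions this ratio was lower at larger widths. Its median was 1.08 at 1000 to 2000 bp, 0.871 at 3000 to 5000 bp and 0.803 at 5000 to 8000 bp. Whether members with and without a RUNX1 peak differ in this ratio at equal width was not tested. By number of AI-10-49 RUNX1 summits, 444 members held none, 139 held 1, 26 held 2 and 9 held 3 or more.

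RUNX1 in AI-10-49 sat chiefly in the strongest DMSO piece. Of 221 summits inside merged regions, 22 lay in filled gaps, 198 in DMSO pieces and 1 in an outer end. By length this was 87.3 summits per Mb in filled gaps (54.7 to 132), 103 in DMSO pieces (88.8 to 118) and 7.96 in outer ends (0.201 to 44.3), so filled gaps and pieces did not differ beyond their intervals. The strongest pieces held 176 of the summits, or 146 per Mb (126 to 170), and the other pieces held 22, or 30.3 per Mb (19.0 to 45.8). The interval of all filled gaps lay above that of the other pieces and overlapped that of the strongest pieces. The 199 summits outside filled gaps were a median of 1464 bp from the nearest one, and 14 of them were within 200 bp.

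Of the 27 RUNX1 summits of DMSO, 3 lay in filled gaps, 22 in strongest pieces, 2 in other pieces and 0 in outer ends, where a count of 0 allows up to 23.9 per Mb. Of the 27 DMSO sites, 26 overlapped an AI-10-49 site. Paired sites had a median of 3.03 fragments per M reads in AI-10-49 and 0.873 in DMSO, and the ratio within a pair had a median of 2.97 (quartiles 1.93 and 4.10). It was above 1.13, the ratio of RUNX1 fragment lengths taken as the narrowest listed widths, in 24 of 26 pairs. Over the whole DMSO RUNX1 list, 1551 of 1701 sites (91.2%) overlapped an AI-10-49 site, the ratio had a median of 2.1 (quartiles 1.52 and 2.97), and it was above 1.13 in 1392 pairs (89.7%). Conversely, 26 of the 221 AI-10-49 sites (11.8%, 7.83 to 16.8) overlapped a DMSO site, against 14.9% in the whole AI-10-49 RUNX1 list.

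Filled gaps held RUNX1 less often than unfilled gaps with both neighbours listed in AI-10-49. An AI-10-49 RUNX1 summit lay in 22 of the 1386 filled gaps, or 1.59% (1.00 to 2.39), and the share over all 32684 gaps was 3.58%. Under 250 bp it was 1.91% (1.19 to 2.90) of gaps filled by merged regions, 3.56% (3.01 to 4.18) of gaps filled by regions over exactly 2, and 5.83% (5.41 to 6.27) of gaps that were not filled, with 5.02% over all gaps of that width. Where a gap was not filled although both neighbours overlapped an AI-10-49 region, the share was 9.68% (8.90 to 10.5). Where a neighbour overlapped no AI-10-49 region it was 2.54% (157 of 6191, 2.16 to 2.96), an interval that overlapped that of the filled gaps. Under 100 bp those gaps had 1.03% (0.655 to 1.54), against 1.69% of the filled ones. Between 100 and 250 bp the contrast was 2.11% (12 of 569) in filled gaps and 11.4% (415 of 3647) in the gaps kept between listed neighbours. Between 500 and 1000 bp no filled gap of 70 held a summit, which allows up to 4.29%, and kept gaps had 0.563%.

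**Figure D5:**
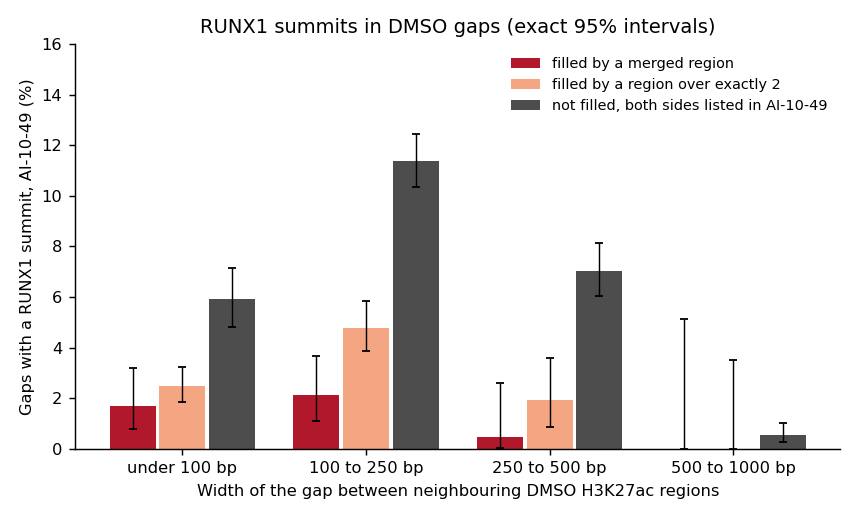
Share of gaps between neighbouring DMSO H3K27ac regions with a RUNX1 summit of AI-10-49 (vertical axis, %) by gap width (horizontal axis), for gaps filled by merged regions (red), gaps filled by regions over exactly 2 DMSO regions (light) and gaps not filled with both neighbours listed in AI-10-49 (grey). Bars are shares and lines are exact 95% intervals. Kept gaps hold a summit most often at 100 to 250 bp (11.4%), where gaps filled by merged regions have 2.11%.

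The level of the neighbours moved with this difference too, and kept gaps lay between stronger pieces. For gaps under 250 bp, the weaker of the 2 neighbouring DMSO regions had a median of 0.616 fragments per M reads at gaps filled by merged regions and 0.841 at kept gaps. In 6 classes of that level, taken after the values were seen, the share with a RUNX1 summit was lower in filled gaps each time. It was 0.718% and 3.47% where the weaker neighbour had 0.5 to 0.7 fragments per M reads, and 2.42% and 8.19% at 0.7 to 1.0. Intervals overlapped in the 4 other classes, which held 0 of 290 filled gaps at the lowest level and 5 of 28 (17.9%) at the highest, against 19.2% of kept gaps there. Kept gaps given the neighbour levels of the filled ones would have 5.63%, against 1.91%.

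The mirror set was counted without weighting by neighbour level, and its gaps belong to the other H3K27ac list. Gaps under 250 bp in the AI-10-49 list that a DMSO region over 3 or more AI-10-49 regions spanned held an AI-10-49 RUNX1 summit in 3.60% (2.93 to 4.36). In DMSO a RUNX1 summit lay in 3 of the 1386 filled gaps, or 0.216%, and the share over all gaps was 0.581%.

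The RUNX1 sites that did lie in filled gaps included strong ones. The foremost, in 14q24.3, the band of the immediate early gene FOS, was chr14:77234477-77235168 with 149 fragments over its summit (4.73 per M reads) and a fold enrichment of 26.9 in the authors' list. Its summit stood in a gap of 66 bp between pieces of 149 and 181 H3K27ac fragments, and no DMSO RUNX1 site overlapped it. The joined region had 160 H3K27ac fragments (4.33 per M reads) in AI-10-49, and its strongest piece had 5.07 per M reads in DMSO.

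The second, in 11q12.3 (chr11:61739212-61739756), was listed in both conditions, with 4.82 RUNX1 fragments per M reads in AI-10-49 and 1.21 in DMSO. It stood in a gap of 162 bp, and the H3K27ac summit was 4.76 in the joined region in AI-10-49 and 3.17 in its strongest DMSO piece. The site in 19q13.2 (chr19:39926447-39926908) also had both, 3.20 in AI-10-49 and 1.48 in DMSO, but H3K27ac went the other way, with 2.65 in AI-10-49 and 4.85 in DMSO. The third site of this kind, in 4p16.1, had nearly equal RUNX1 levels of 0.984 and 0.888. Sites in 17q25.1 and 5q14.3 (chr5:88122864-88123386) were listed in AI-10-49 alone, at 3.68 and 2.70 fragments per M reads in gaps of 63 and 54 bp.

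The site in 7q34 (chr7:141660525-141660932) had 54 RUNX1 fragments in AI-10-49 in a gap of 114 bp. Its region had the highest H3K27ac ratio of all members, 2.79, with 78 fragments in AI-10-49 and 15, 27 and 27 in its DMSO pieces. The gap on the other side, 707 bp wide, was filled without a RUNX1 summit. Over the 22 sites in filled gaps the RUNX1 level had a median of 1.43 fragments per M reads (0.508 to 4.82), and over all 221 sites in merged regions it was 1.21 (0.476 to 5.71).

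The region with the most RUNX1 summits had none in a gap. In 17q22, the band of the granule protein gene MPO, chr17:56407561-56424614 held 6 AI-10-49 RUNX1 summits of 29 to 45 fragments and no DMSO summit. It joined the end of a DMSO region with 355 H3K27ac fragments to pieces of 182 and 20, across gaps of 108 and 181 bp, and had 314 in AI-10-49. A further 8 members held exactly 3 such summits, and the 4 widest of these are named. They lay in 5q33.1, 3p21.31, 12p13.31 and 17q25.3, were 10860 to 17923 bp wide and held all their summits outside the gaps. Their H3K27ac ratios were 0.696 to 0.844.

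The 25 members whose H3K27ac summit fell in a filled gap were small, with a median width of 1592 bp. Their ratio to the strongest piece had a median of 1.13, and it was above 1.09 in 13. None had an AI-10-49 RUNX1 summit in a filled gap, and 1 overlapped a RUNX1 peak at all. Of all 618 members, 22 had an AI-10-49 RUNX1 summit in a filled gap (3.56%, 2.24 to 5.34), and 5.59% of merged regions of 1 to 2 kb overlapped an AI-10-49 RUNX1 peak. Examples, chosen after their values were seen, lay in 2q32.1 (chr2:188450555-188452587), with 52 fragments in AI-10-49 and 12 to 20 in its 4 DMSO pieces, in 6q14.1 with a ratio of 2.33 and in 1q25.3 with a ratio of 1.87.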

How the data were processed

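Chromatin of ME-1 cells was precipitated after 6 h in AI-10-49 (1 µM) or DMSO and sequenced, per the labels. Reads were processed with MACS2 2.1.0, Bowtie2 2.1.0, Picard 1.96, SAMtools 1.3 and CASAVA 1.4 on hg19, in roles and an order not given, per the submitters' processing notes. Peaks were listed per sample. The deposited ratio per peak is the authors' fold enrichment at the summit, and each deposited −log10 of p or q is theirs too. The deposited score was not used.

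Summit fragments were recovered from fold and −log10 p, assuming MACS2's Poisson test. Fragment length was taken as the narrowest listed width of each list. Read totals were computed from the lowest recovered background, that length and a genome of 2700000000 bp. All peaks were solved within 0.003 of their −log10 p. The recovery of summit fragments was tested on simulated data, and overlap counts were checked against bedtools 2.31.1.

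The RUNX1 libraries held 31.5 M (AI-10-49) and 33.8 M reads (DMSO). Shares carry Clopper-Pearson and densities Poisson intervals. A count of 0 is read as up to 3. Shares "given" another set's widths or levels are class shares weighted by that set. Overlap rules and thresholds were varied as described at the end. The bounds of the region and gap width classes were not varied.

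Members, classes and named regions were chosen with earlier results of these data known. Named regions were the 10 over most DMSO regions (ties by filled bp), the 10 with most filled bp, those of the 10 highest RUNX1 AI-10-49 and of all RUNX1 DMSO summits in filled gaps by −log10 q, the 5 with most AI-10-49 RUNX1 summits (ties by width), and the extremes of width. Cytobands came from circlize 0.4.16. Python 3.11.15, pandas 2.3.3 and scipy 1.17.1 were used. Genes at the regions, cell type markers and sequences needed an hg19 reference and were not analysed here.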

Additional observations from a re-analysis of the deposited data

How the results depend on the processing

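Shares and densities were held to the interval of the reported value, and counts, medians, differences and ratios to 1.5 times. Of 60 recomputed values 30 stayed, 29 moved further and 1 reversed. The number of merged regions fell to 218 with whole DMSO regions inside, 304 and 72 with both H3K27ac lists at −log10 q of at least 5 and 10, and 46 after joining DMSO regions closer than 250 bp. It was 5191, 115 and 25 for at least 2, 4 and 5 DMSO regions. Median width was 1525 and 4732 bp for at least 2 and 4. Filled gaps numbered 663 at −log10 q of at least 5, and 286 with a median of 381 bp when only gaps of 250 bp and more were kept.

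The share of members with a RUNX1 peak was 23.5% and 35.7% for at least 2 and 4 DMSO regions, 21.8% at RUNX1 −log10 q of at least 10 and 6.47% with RUNX1 lists of equal length. Merged minus regions over 1, at equal width, was -18.8 percentage points. It was -7.50 for at least 2 DMSO regions, -5.73 at equal list length, -9.43 in classes of width and summit level, and 0.113 in classes of summit level, the one reversal. Summits per Mb were 70.5 in DMSO pieces at −log10 q of at least 10, and 23.8, 17.1 and 0 in gaps, pieces and outer ends at equal list length. In gaps of 250 bp and more the density was 7.92.

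With a RUNX1 interval over the gap in place of a summit inside it, shares under 250 bp were 3.18% (filled) and 9.99% (not filled), a difference of -6.81 points. With both neighbours listed, the not-filled share was 9.68% and the difference -7.77. The cause of these moves was not tested. Alternatives by summit level and by neighbour level were added after the data were seen.

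No paired analysis was possible because each antibody and condition had 1 library. No library was left out for the same reason. Outer ends covered 0.126 Mb with 1 summit, and the 70 filled gaps of 500 to 1000 bp held 0. Counts were not corrected for the smaller library or for fragment length.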

Other observations

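By cytoband, 21q22.12, the band of RUNX1 itself, held the most merged regions, 8 of its 160 AI-10-49 H3K27ac regions (5%). They lay between chr21:36206710-36209163 and chr21:36405668-36408597 (hg19), were 1074 to 4157 bp wide, and had H3K27ac ratios to their strongest DMSO piece of 0.510 to 1.62. None of the 8 overlapped a RUNX1 peak of either list. Over all merged regions an AI-10-49 RUNX1 peak overlapped 5.59% at 1 to 2 kb, 17.3% at 2 to 3 kb and 38.8% at 3 to 5 kb. The same band held 7 DMSO regions that were listed as 3 or more in AI-10-49. In 5q31.3, 7 of 153 AI-10-49 regions were merged, against 1 DMSO region of the mirror kind. These bands were picked after their counts were seen. A total of 32 neighbouring pairs of merged regions lay within 10 kb of each other.

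Among gaps that were not filled and had both neighbours listed in the other condition, those of 100 to 250 bp held an AI-10-49 RUNX1 summit most often, whichever H3K27ac list defined the gap. The share was 12.0% of AI-10-49 gaps and 11.4% of DMSO gaps of that width.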
